A study of Homo sapiens with 4 samples.

Results

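Cohesin and condensin are the ring-shaped protein complexes that hold sister chromatids together and fold chromosomes, and their subunit genes were followed here on 4 microarrays of DU145, an established cell line from a human prostate cancer that does not need androgen to grow. The members were 10 genes taken by symbol from the platform annotation: the cohesin genes SMC1A, SMC3, RAD21, STAG1 and STAG2, and the condensin genes SMC2, SMC4, NCAPD2, NCAPG and NCAPH. Of these, 9 were measured, by 1 probe set each, among 17687 genes in all, and RAD21 was not analysed here. For 48 h the cultures had received vehicle, 5 µM of No.10-3, 0.5 µM of C-30 (low-dose C-30) or 2 µM of it (high-dose C-30), and both compounds are described as inhibitors of PSF, the RNA-binding protein encoded by SFPQ. Each condition had 1 array, so no value has an error and no difference a p-value, and every statement describes these 4 arrays. All 4 cultures were of the same line, and the compounds are known only by their code names.

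Cohesin is a ring of the ATPases SMC1A and SMC3, closed by the kleisin RAD21, to which 1 of the HEAT-repeat proteins STAG1 or STAG2 binds. It is loaded before replication, entraps the sister chromatids, forms chromatin loops in interphase and is removed in mitosis. Condensin is built on the related ATPases SMC2 and SMC4, and condensin I adds the kleisin NCAPH and the HEAT-repeat proteins NCAPD2 and NCAPG. It compacts chromosomes in mitosis, and genes of condensin I belong to the set that proliferating cells transcribe most in G2 and mitosis, whereas cohesin genes are transcribed through most of the cell cycle.

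The values are taken as log2 signals made by RMA, a method that summarises the probes of a gene. Genes apart by 1 on this scale are called 2-fold different. The median signal of all genes lay between 5.55 and 5.57 on the 4 arrays. The 95th percentile of 612 negative control probe sets, called the background level, lay between 7.06 and 7.32, and a difference that starts or ends below it is inexact. In a check of the cell type, 4 of 5 epithelial markers were above background on every array, with KRT8 between 12.31 and 13.61, whereas CDH1 was not, at 4.33 to 5.57. None of the 3 measured luminal prostate markers (KLK3, KLK2 and TMPRSS2) and none of the 3 endothelial markers was above background on any array, while 1 of 4 fibroblast markers was, on 1 array (COL1A2 with low-dose C-30, 7.13). Of 4 leukocyte markers only CD68 was above background, at 8.43 with vehicle and 9.50, 8.55 and 8.79 on the treated arrays, and the summed log2 signal of the 4 was 24.2, 22.9, 23.5 and 25.0 in the same order. The part of CD68-expressing cells in the results was not tested.

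**Figure D1:**
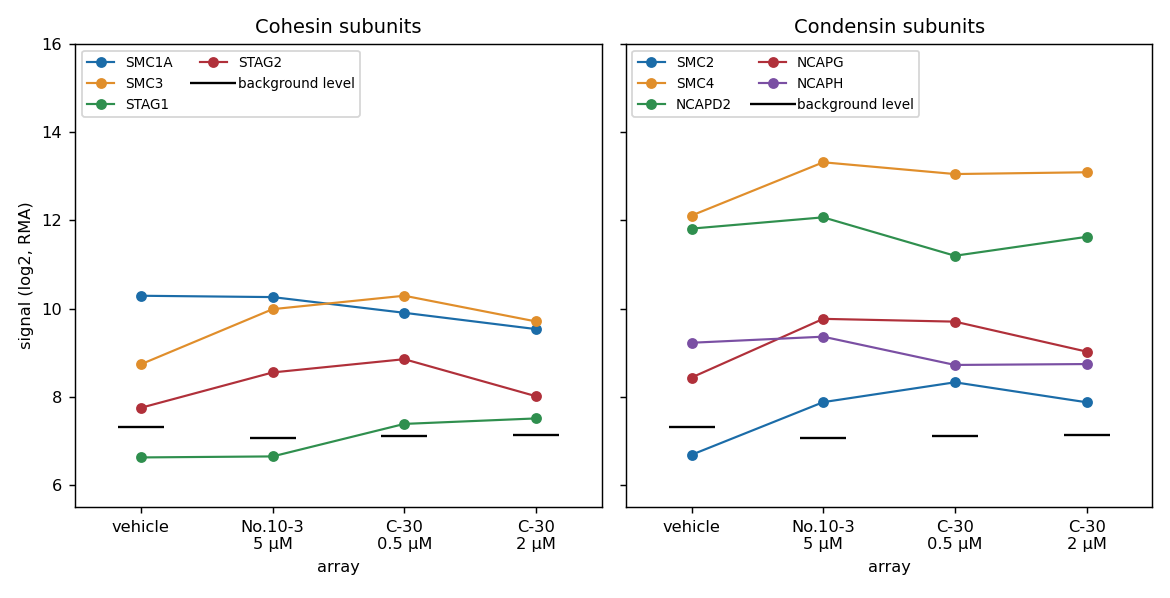
Log2 RMA signal of the 4 measured cohesin genes and the 5 condensin genes on the 4 arrays, 1 point per array; lines only join the points of a gene, and black bars mark the background level of each array (95th percentile of negative controls). SMC3, STAG2, SMC2, SMC4 and NCAPG lie above their vehicle point on all 3 treated arrays, SMC1A lies below it, and STAG1 is under the bar on the arrays of vehicle and No.10-3.

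Within the cohesin ring the ATPase partners went apart. SMC3 (Entrez 9126), whose acetylation locks the ring around sister chromatids, had a log2 signal of 8.74 on the vehicle array, and of 9.99, 10.29 and 9.71 after No.10-3, low-dose C-30 and high-dose C-30. Every treated array was above vehicle, by log2 differences of 1.25 (2.38-fold), 1.55 (2.93-fold) and 0.97 (1.96-fold). SMC1A (Entrez 8243), the partner that forms the other arm of the ring, had signals of 10.29, 10.26, 9.91 and 9.54 in the same order. No treated array was above vehicle for SMC1A, and its differences were -0.03, -0.39 and -0.76, the last a 1.69-fold lower signal. Among the genes tested, SMC3 ranked 175 from the highest of 9219 with No.10-3 and 51 of 9267 with low-dose C-30, while SMC1A ranked 1152 from the lowest of 9319 with high-dose C-30.

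The 2 alternative HEAT-repeat subunits of cohesin followed different orders over the arrays. STAG2 (Entrez 10735), an X-linked gene often mutated in cancer and the usual form at enhancer loops, had signals of 7.76 on the vehicle array and 8.56, 8.86 and 8.02 on those of No.10-3, low-dose and high-dose C-30. Its highest value was at the lower dose of C-30, at a difference of 1.10 from vehicle (2.15-fold), and the higher dose lay close to vehicle, at 0.26. STAG1 (Entrez 10274), whose complexes are enriched at telomeres and at CTCF sites, had signals of 6.63, 6.65, 7.39 and 7.51. It was above background on the C-30 arrays only, so its differences of 0.76 and 0.88 are inexact, and that of 0.02 with No.10-3 lay between 2 values within background and turned to between -0.08 and -0.04 under other scalings.

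The condensin ATPases were higher on each treated array. SMC4 (Entrez 10051) had signals of 12.11 on the vehicle array and 13.32, 13.05 and 13.09 on those of No.10-3, low-dose and high-dose C-30, all far above background. The treated arrays were close to each other and all above vehicle, with differences of 1.21 (2.31-fold), 0.94 (1.92-fold) and 0.98 (1.97-fold). SMC2 (Entrez 10592), its partner, had signals of 6.69, 7.88, 8.33 and 7.88. It was below background with vehicle and above it on the treated arrays, so its differences of 1.19, 1.64 and 1.19 are inexact.

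The 3 non-SMC subunits of condensin I did not share a pattern. NCAPG (Entrez 64151), the HEAT-repeat subunit that helps anchor the complex on DNA, had signals of 8.44 on the vehicle array and 9.77, 9.71 and 9.03 on those of No.10-3, low-dose and high-dose C-30. Its differences were 1.33 (2.51-fold, rank 138 of 9219), 1.27 (2.41-fold) and 0.59, so every treated array was above vehicle. NCAPD2 (Entrez 9918), the other HEAT-repeat subunit, had signals of 11.82, 12.07, 11.20 and 11.63, with differences of 0.26, -0.62 and -0.19. NCAPH (Entrez 23397), the kleisin that bridges the SMC heads, had signals of 9.23, 9.37, 8.73 and 8.75, with differences of 0.14, -0.50 and -0.48. Both lay slightly above vehicle on the array of No.10-3 and below it on those of C-30.

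**Figure D2:**
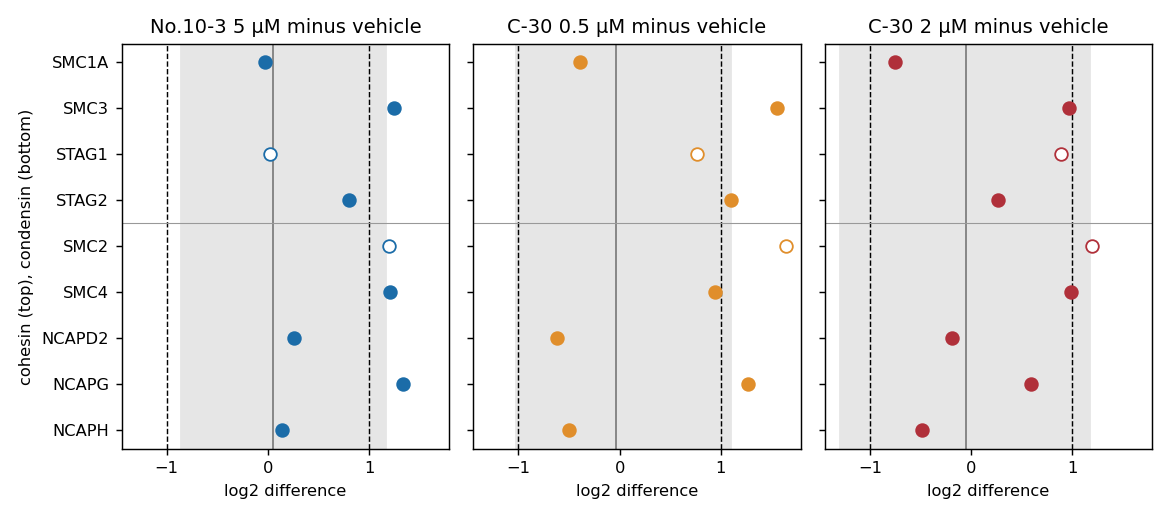
Log2 difference from vehicle of each measured member on the 3 treated arrays; open circles mark a gene under the background level on either array, the grey band holds the middle 95% of all genes tested in that comparison, the grey line is their median, and dashed lines mark 2-fold. With No.10-3 SMC3, SMC2, SMC4 and NCAPG are past the right dashed line; with low-dose C-30 SMC3, STAG2, SMC2 and NCAPG; with high-dose C-30 only SMC2.

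More members were past 2-fold upwards than downwards with No.10-3 and low-dose C-30. The members and the gene lists below were chosen with earlier results of these data known, so such counts are a description and not a test. With high-dose C-30 the difference was 1 gene, and nothing is read from it. With No.10-3, 4 of 9 members (44.4%) were at least 2-fold higher, beside 4.36% of the 9219 genes tested, and 0 were 2-fold lower, beside 1.32%. With low-dose C-30, 4 of 9 were higher, beside 3.40% of 9267 genes, and 0 lower, beside 2.77%. With high-dose C-30, 1 of 9 (11.1%) was higher, SMC2 with its inexact difference, beside 4.67% of 9319 genes, and 0 lower, beside 6.15%. SMC4 at 0.98 and SMC3 at 0.97 lay just under the threshold there. With the arrays centred on the median, quantile-normalized or corrected for signal the count was 3, beside 6.02%, 5.72% and 5.42% of all genes tested. It was 0 with the higher floor, which leaves SMC2 out, beside 4.38%. The 3 comparisons share the vehicle array, whose error enters each of them in the same direction. The share of all genes that were 2-fold higher went down with mean signal, from 6.13% in the dimmest of 5 equal groups to 2.33% in the brightest with No.10-3, and no member lay in the dimmest group of any comparison.

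At a threshold of 1.5-fold members stood on both sides with C-30. With No.10-3, 5 of 9 were higher, beside 14.8% of all genes tested, and 0 lower, beside 8.34%. With low-dose C-30, 6 were higher, beside 12.2%, and 1 (NCAPD2) lower, beside 13.4%. With high-dose C-30, 5 were higher, beside 15.1%, and 1 (SMC1A) lower, beside 18.5%. Between the doses 0 were higher at 2 µM, beside 7.89%, and 2 (STAG2 and NCAPG) lower, beside 9.92%.

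As groups, the 4 measured cohesin genes had median differences of 0.41, 0.93 and 0.57 after No.10-3, low-dose and high-dose C-30, and the 5 condensin genes 1.19, 0.94 and 0.59. With high-dose C-30 these medians were 0.26 for cohesin and 0.20 for condensin at the higher floor (7.90), which leaves out STAG1 and SMC2. The median over all genes tested was 0.05, -0.04 and -0.06. The medians hide the distance between the subunits of a complex. With low-dose C-30 the condensin genes ranged from -0.62 for NCAPD2 to 1.64 (inexact) for SMC2, and the cohesin genes from -0.39 for SMC1A to 1.55 for SMC3.

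Between the doses of C-30, no member passed 2-fold, beside 1.39% of 9282 genes higher and 2.18% lower at 2 µM than at 0.5 µM. STAG2 was furthest, lower by a log2 difference of -0.84 (1.79-fold) at the higher dose, followed by NCAPG at -0.68 and SMC3 at -0.58. SMC4 and NCAPH hardly differed, at 0.04 and 0.02, while NCAPD2 was higher by 0.43. For STAG2, SMC3, SMC2, NCAPG and NCAPD2 the lower dose was therefore further from vehicle than the higher one, and for SMC1A and STAG1 the higher dose was. The median over the cohesin genes was -0.48 and over the condensin genes 0.02, beside -0.03 over all genes tested.

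Ratios of signals within an array do not depend on a shift of that whole array, so the subunits of a complex were also set against each other. The log2 ratio of SMC3 to SMC1A was above that of vehicle by 1.28 with No.10-3, 1.94 with low-dose C-30 and 1.73 with high-dose C-30, which are 2.43-fold, 3.84-fold and 3.31-fold. It kept between 1.22 and 1.94 over the 3 comparisons and all settings tried. Of these settings, only quantile normalization and the correction for signal could move it beyond rounding. The ratio of NCAPG to NCAPH was above that of vehicle by 1.19, 1.77 and 1.07, and that of NCAPG to NCAPD2 by 1.07, 1.88 and 0.77. The ratio of STAG2 to STAG1 turned, from 0.78 with No.10-3 and 0.34 with low-dose C-30 to -0.62 with high-dose C-30, but STAG1 within background makes it inexact. The ratio of the condensin partners SMC2 and SMC4 changed by -0.01, 0.70 and 0.21. Unequal change of 2 probe sets does not show that either transcript was constant.

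**Figure D3:**
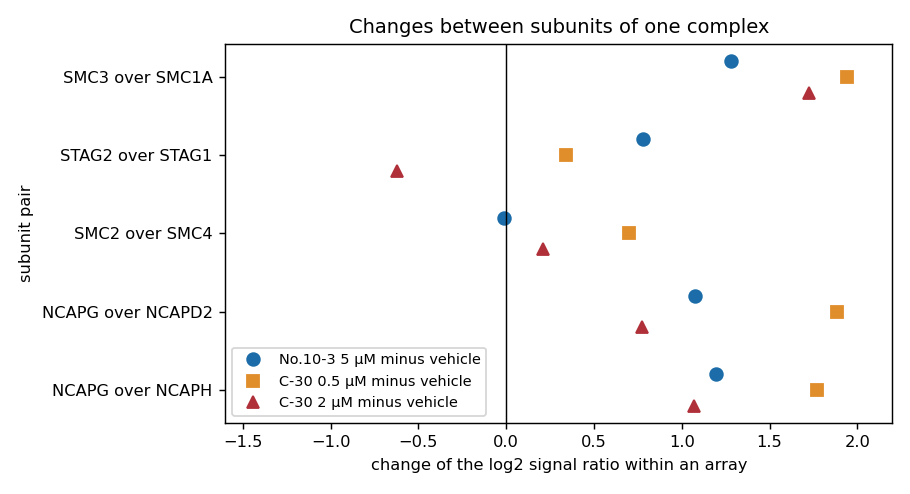
Change from vehicle of the log2 signal ratio of subunit pairs, each ratio taken within an array, for No.10-3 at 5 µM (circles), low-dose C-30 (squares) and high-dose C-30 (triangles); 0 means the same ratio as with vehicle. SMC3 over SMC1A, NCAPG over NCAPD2 and NCAPG over NCAPH lie right of 0 for every compound and dose, and STAG2 over STAG1 lies left of it with high-dose C-30.

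The promoters of the 5 condensin genes are shown because these genes stood differently to vehicle, and those of SMC3 and SMC1A because these ring partners did. They are RefSeq sequences of GRCh38.p14, the first start listed for each gene, from 250 bases before it to 50 after, read 5′ to 3′ on the gene's strand. Capitals mark letters of the CHR, the element bound by the DREAM and MYB-MuvB complexes at G2 and mitosis genes (TTTGAA, its variant TTCGAA or the palindrome TTTAAA), of the CCAAT box bound by NF-Y (CCAAT), and of E2F sites (searched as TTCCCGC, as the variant TTGGCGC, as the variant TTCGCGC and as the variant TTGCCGC), each on either strand and none overlapping another in these windows. NCAPG is at chr4:17810729-17811028 (plus strand), SMC4 at chr3:160399400-160399699 (plus), SMC2 at chr9:104094059-104094358 (plus), NCAPD2 at chr12:6493852-6494151 (plus), NCAPH at chr2:96335516-96335815 (plus), SMC3 at chr10:110567445-110567744 (plus) and SMC1A at chrX:53422679-53422978 (minus).
NCAPG: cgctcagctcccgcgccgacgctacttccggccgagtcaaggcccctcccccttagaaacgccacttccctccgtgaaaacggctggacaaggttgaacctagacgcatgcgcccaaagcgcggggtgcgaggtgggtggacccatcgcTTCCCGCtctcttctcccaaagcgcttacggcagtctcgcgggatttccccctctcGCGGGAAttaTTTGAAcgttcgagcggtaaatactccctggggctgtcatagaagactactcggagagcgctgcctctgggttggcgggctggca
SMC4: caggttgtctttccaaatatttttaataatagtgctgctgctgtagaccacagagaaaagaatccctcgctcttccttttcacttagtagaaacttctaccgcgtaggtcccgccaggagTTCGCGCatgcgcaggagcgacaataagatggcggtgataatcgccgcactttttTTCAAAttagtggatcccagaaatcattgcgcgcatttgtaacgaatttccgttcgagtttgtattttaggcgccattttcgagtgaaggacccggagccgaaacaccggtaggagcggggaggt
SMC2: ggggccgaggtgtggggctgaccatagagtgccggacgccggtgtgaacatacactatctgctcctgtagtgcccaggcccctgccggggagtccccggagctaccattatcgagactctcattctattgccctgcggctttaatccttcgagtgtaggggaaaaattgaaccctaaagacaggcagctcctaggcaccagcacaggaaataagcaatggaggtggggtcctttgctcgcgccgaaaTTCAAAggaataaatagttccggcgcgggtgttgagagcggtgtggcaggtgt
NCAPD2: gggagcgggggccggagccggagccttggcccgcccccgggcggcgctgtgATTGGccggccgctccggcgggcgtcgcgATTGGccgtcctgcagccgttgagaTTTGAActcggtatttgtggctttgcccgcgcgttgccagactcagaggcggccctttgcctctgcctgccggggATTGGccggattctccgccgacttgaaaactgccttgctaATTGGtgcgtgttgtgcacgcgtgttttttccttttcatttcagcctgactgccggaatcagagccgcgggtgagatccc
NCAPH: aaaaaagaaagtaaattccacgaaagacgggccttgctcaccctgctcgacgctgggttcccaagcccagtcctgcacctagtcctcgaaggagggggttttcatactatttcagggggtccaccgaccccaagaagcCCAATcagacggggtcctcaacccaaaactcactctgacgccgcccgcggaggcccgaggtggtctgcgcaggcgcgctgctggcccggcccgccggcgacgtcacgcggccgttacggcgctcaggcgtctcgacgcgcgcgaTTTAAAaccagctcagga
SMC3: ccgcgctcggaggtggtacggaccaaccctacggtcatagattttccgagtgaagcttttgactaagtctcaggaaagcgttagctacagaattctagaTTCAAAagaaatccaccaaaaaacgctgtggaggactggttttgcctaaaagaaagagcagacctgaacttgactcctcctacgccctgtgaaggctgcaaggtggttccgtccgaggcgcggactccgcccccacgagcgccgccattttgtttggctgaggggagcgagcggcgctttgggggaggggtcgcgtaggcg
SMC1A: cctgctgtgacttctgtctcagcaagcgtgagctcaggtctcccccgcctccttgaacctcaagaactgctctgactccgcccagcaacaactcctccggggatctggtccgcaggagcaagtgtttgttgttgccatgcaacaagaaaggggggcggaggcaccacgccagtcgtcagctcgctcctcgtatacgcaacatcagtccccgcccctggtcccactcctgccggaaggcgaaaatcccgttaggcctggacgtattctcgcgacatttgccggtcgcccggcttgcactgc

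CHR letters were present in all 5 condensin promoters and in 1 of the 4 cohesin promoters, beside 20.3% of the first listed promoters of 14250 measured genes. These counts take the first start of each gene, and other starts are listed for some. The second starts of SMC2 and SMC4 had no letters of any motif, and neither the second start of SMC1A nor the other starts of STAG2 had CHR letters. In NCAPG they begin 35 bases before the start, with E2F letters 45 and 101 bases before it. In SMC4 they begin 75 bases, in SMC2 3 bases and in SMC3 151 bases before the start. NCAPD2 has them 145 bases before the start beside 4 CCAAT boxes, and NCAPH has TTTAAA 32 bases after the start and 1 CCAAT box 112 bases before it. CCAAT letters were in 2 of 5 condensin and 2 of 4 cohesin promoters, beside 36.4% of measured genes, and E2F letters in 2 of 5 and 1 of 4, beside 17.3%.

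The condensin genes higher on every treated array (SMC2, SMC4 and NCAPG) had CHR letters and no CCAAT box in the window of the first start. The other condensin genes had both. This contrast was picked out after the values were seen, and the second starts of SMC2 and SMC4 had no CHR letters. The part of these letters in the values was not tested. Over all genes, the share 2-fold higher was larger with both kinds of letters than with CHR letters alone in each comparison with vehicle. Of genes tested with No.10-3, 5.19% of the 713 with CHR and no CCAAT letters were at least 2-fold higher, and 7.90% of the 544 with both, beside 4.48% of all 7706 with a promoter. With C-30 the same shares were 4.42% and 5.95% at 0.5 µM and 5.18% and 7.39% at 2 µM, beside 3.51% and 4.78%. These letters are matches in a window and not shown to be sites.

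Genes that load, release and protect cohesin were examined next. Of 13 measured, 4 were at least 2-fold higher with No.10-3 (beside 4.36% of all genes tested), 2 with low-dose C-30 (beside 3.40%) and 1 with high-dose C-30 (beside 4.67%), and none was 2-fold lower, with medians of 0.57, 0.17 and 0.31. NIPBL, the loader that also drives loop extrusion, had signals of 6.64 on the vehicle array and 8.07, 8.17 and 7.91 on those of No.10-3, low-dose and high-dose C-30. Its differences of 1.43, 1.53 and 1.27 were the highest of the list in each comparison with vehicle, and inexact because vehicle was within background. MAU2, its partner in the loader, was within background on all 4 arrays, at 6.95, 6.99, 6.63 and 6.43.

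PDS5A, which regulates the release and acetylation of cohesin, had signals of 9.87, 11.23, 11.10 and 10.67, with differences of 1.36, 1.23 and 0.80, while its paralog PDS5B differed by at most 0.15 either way. WAPL, which opens the ring, was above vehicle by 0.59, 0.88 and 0.39, and was the lowest of the list at 2 µM against 0.5 µM of C-30, at -0.49. PTTG1, which encodes the separase inhibitor securin, was 2-fold higher with No.10-3 alone, at 1.26 against 0.19 and 0.61 with C-30. ESCO2, the acetyltransferase that acts on SMC3 in S phase, stood at 1.18 with No.10-3, from a vehicle signal within background. It was the highest of the list at 2 µM against 0.5 µM of C-30, at 0.45, from a low-dose signal of 6.76, also within background. CDCA5, which encodes sororin, the protector of acetylated cohesin, was lowest with No.10-3 at -0.76 and with low-dose C-30 at -0.35, from a vehicle signal of 10.47. HDAC8, which removes the acetyl group from SMC3, was lowest with high-dose C-30, at -0.63, within background on both arrays.

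Condensin II shares SMC2 and SMC4 with condensin I and has non-SMC subunits of its own. Of the 3 of these measured, none passed 2-fold in any comparison. Over all genes tested 4.36%, 3.40% and 4.67% were 2-fold higher with No.10-3, low-dose C-30 and high-dose C-30. The 3 condensin II genes had medians of 0.43, 0.03 and -0.17 in that order. The highest was NCAPG2, at 0.53, 0.04 and -0.07, and the lowest NCAPD3, at -0.03, -0.10 and -0.27. Between the doses of C-30 NCAPG2 was highest at -0.11 and NCAPH2, within background there, lowest at -0.20. The non-SMC subunits of condensin I, grouped after the values were seen, had medians of 0.26, -0.50 and -0.19 in the same comparisons with vehicle, and NCAPG alone of these passed 2-fold. MCPH1, put on the condensin II list beside these subunits, was not analysed here.

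The SMC5/6 complex, the third SMC complex, which acts in DNA repair, had its ATPase genes among the higher ones. SMC5 had signals of 6.36, 7.48, 7.36 and 7.02, with differences of 1.12, 1.00 (just past 2-fold) and 0.66, inexact since vehicle lay within background. SMC6 had signals of 8.32, 9.40, 9.24 and 8.64, with differences of 1.08, 0.92 and 0.32. Of the 7 measured genes of this complex, 6 passed the floor with No.10-3, of which 2 were 2-fold higher, beside 4.36% of all genes tested. With low-dose C-30 7 passed it, of which 2 were 2-fold higher, beside 3.40%. With high-dose C-30 6 passed it, of which 0 were 2-fold higher, beside 4.67%. The second with low-dose C-30 was SLF1, within background on all 4 arrays (4.57, 4.47, 5.80 and 5.05). It passed the floor only through the low-dose array where it was highest, so that its differences there (1.23 from vehicle and -0.74 between the doses) follow in part from the floor, and without it the count is 1 of 6. NSMCE3 was not analysed here. The lowest were NSMCE2, a SUMO ligase, at -0.66 with No.10-3, and NSMCE1 at -0.14 and -0.01 with C-30, while NSMCE4A was highest with high-dose C-30 at 0.70 and between the doses at 0.22, within background.

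Put together across the complexes, a grouping made after the values were seen, 5 of the 6 SMC ATPase genes of somatic cells were at least 2-fold higher with No.10-3, with SMC1A the exception, beside 4.36% of all genes tested. With low-dose C-30 they were 3 of 6 (SMC3, SMC2 and SMC5), beside 3.40%, and with high-dose C-30 1 of 6 (SMC2), beside 4.67%. As the grouping followed the values, nothing is read from these counts. Their medians were 1.16, 0.97 and 0.81. The meiotic cohesin genes were within background on all 4 arrays: SMC1B between 3.44 and 4.06, REC8 between 4.71 and 5.66, RAD21L1 at most 4.08, and STAG3 between 5.94 and 6.67. Of these, STAG3 passed the floor in each comparison, at -0.40, 0.20 and 0.34 from vehicle, and REC8 with high-dose C-30, at 0.91, only through that array. Between the doses of C-30 REC8 stood at 0.27 and STAG3 at 0.14.

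**Figure D4:**
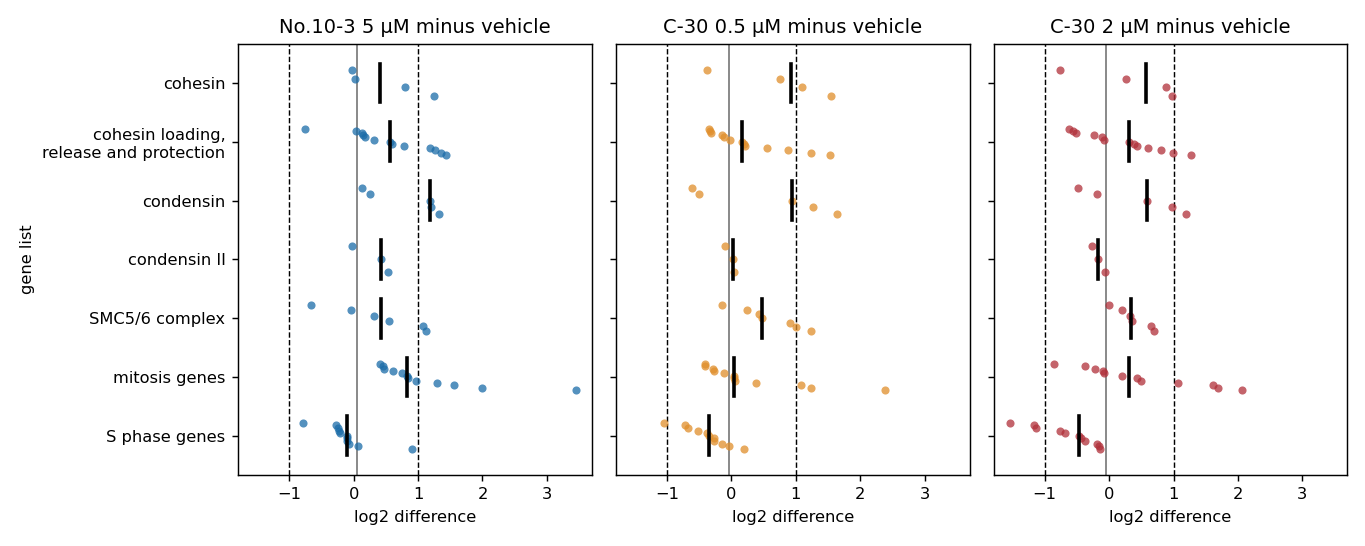
Log2 difference from vehicle of the genes of 7 lists that passed the floor, 1 point per gene, with black bars for list medians, a grey line for the median of all genes tested and dashed lines at 2-fold. The condensin list, which holds SMC2 and SMC4, has a median of 1.19 with No.10-3 and the list of condensin II's own subunits 0.43, the mitosis genes lie right of 0 with No.10-3, and the S phase genes lie left of it with high-dose C-30.

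Because condensin genes are transcribed most in G2 and mitosis, lists of mitosis and S phase genes were set beside them. In RNA from a whole culture, more cells in a phase and more RNA per cell cannot be told apart. Over all genes tested, 54.0%, 46.9% and 46.4% were higher with No.10-3, low-dose and high-dose C-30, and 4.36%, 3.40% and 4.67% were 2-fold higher. Of 12 mitosis genes, 12 were higher with No.10-3 and 4 of them 2-fold (median 0.84), from 0.41 for CDC20, an activator of the anaphase-promoting complex, to 3.45 for the kinetochore gene CENPF. With low-dose C-30 7 of 12 were higher and 3 of them 2-fold (median 0.05), from -0.41 for the proliferation marker MKI67 to 2.39 for CENPF. With high-dose C-30 7 of 12 were higher and 4 of them 2-fold (median 0.31), from -0.85 for MKI67 to 2.07 for CENPF. CENPF was within background with vehicle. Between the doses CCNB1, a mitotic cyclin gene, was highest at 1.34 and the checkpoint kinase gene BUB1 lowest at -0.47.

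Most of the S phase genes were lower than with vehicle, by a small median with No.10-3. Of 11, 9 were lower with No.10-3 (median -0.11, from CDC45 at -0.79 to MCM6 at 0.90), and none was 2-fold lower. With low-dose C-30 10 were lower (median -0.35, from MCM5 at -1.05 to CDC6 at 0.19), and with high-dose C-30 all 11 (median -0.47, from MCM5 at -1.54 to GINS2 at -0.14), of which 1 and 3 were 2-fold lower. Over all genes tested 45.9%, 53.1% and 53.6% were lower in these comparisons, and 1.32%, 2.77% and 6.15% were 2-fold lower. MCM5 and MCM6 encode subunits of the replicative helicase, CDC45 and GINS2 proteins that activate it, and CDC6 a protein that loads it. Between the doses the list ran from CDC6 at -0.63 to PCNA at 0.16. The medians of the condensin, mitosis and cohesin genes were 1.19, 0.84 and 0.41 with No.10-3. They were 0.94, 0.05 and 0.93 with low-dose C-30, and 0.59, 0.31 and 0.57 with high-dose C-30. The part of cell cycle phase in the members' values was not tested.

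Genes with the pattern most like the members were found by distance over the 3 differences from vehicle, among 8983 genes past the floor in all of them. Nearest to the condensin median were CAMSAP2 (1.23, 0.97 and 0.59 for No.10-3 and the lower and higher dose of C-30), SMC5, OTUD6B (1.14, 0.96 and 0.46) and ARHGEF12 (1.04, 0.98 and 0.60), at distances of 0.05, 0.12, 0.14 and 0.16. Nearest to the cohesin median were FAM47B (0.43, 0.93 and 0.49), SRSF11 (0.44, 0.89 and 0.49), KRTAP3-1 (0.44, 0.83 and 0.53) and ICE1 (0.52, 0.88 and 0.57), at distances of 0.09, 0.09, 0.11 and 0.12. FAM47B and KRTAP3-1 lay within background on all 4 arrays. With 3 differences that share 1 vehicle array, many genes lie close to any pattern.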

How the data were processed

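The deposited values are taken as log2 signals, 1 per probe set. Per the submitters' processing notes, they were made in Affymetrix Expression Console (version 1.3.0) by RMA. The log base was inferred from the range of the values and the usual output of RMA. The mean signal of a gene over the arrays of No.10-3 and vehicle reached 19.66, and any rescaling of the values is not stated. Every fold given here rests on the log2 reading without rescaling. The sources used here do not give the genome build or probe annotation. Per the labels' protocols, a whole-transcript kit was used to label RNA with biotin. Of 24351 probe sets, 17709 had 1 gene symbol, 0 several and 6642 none. Symbols were updated by Entrez identifier (all 17709 matched), giving 17687 genes, with the mean taken over probe sets of a gene.

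Each gene's value on 1 array was subtracted from that on another. It counted as tested when its higher value was at least 5.56, the median over named probe sets, and as called at a difference of 1 either way. With 1 array per condition there was no test, and precision is limited by how few arrays there are. No.10-3 and C-30 were used at different doses and are given side by side. The members and gene lists were chosen with earlier results of these data known. By the naming rule, all members were named, then each list's highest and lowest gene per comparison, and the 4 nearest patterns per complex. List genes past 2-fold were also named, but not those of the mitosis and S phase lists. Alternatives were a 1.5-fold threshold, no floor, a floor of 7.90 (the 75th percentile), quantile normalization, centring, a lowess correction (fraction 0.3), the brightest probe set and the series table of values, which differed by at most 5e-05. The procedure was run on simulated arrays with known changes, which checks the calculation and not the error of a single array. Software was numpy 2.4.6, statsmodels 0.14.6, pandas 2.3.3 and matplotlib 3.10.9 under Python 3.11.15.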

Additional observations from a re-analysis of the deposited data

How the results depend on the processing

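The count of members past 2-fold with C-30 at 2 µM depended on the settings, and so did the shares of all genes tested. It was 1 as reported, beside 4.67% of genes higher and 6.15% lower. After centring each array it was 3 (SMC2, SMC3 and SMC4), beside 6.02% and 4.70%. It was 3 after quantile normalization (beside 5.72% and 5.20%) and 3 after the lowess correction (beside 5.42% and 5.32%). With the higher floor (75th percentile), which leaves out SMC2 and STAG1, it was 0, beside 4.38% and 7.91%. At a threshold of 1.5-fold it was 6 (5 higher and 1 lower), beside 15.1% and 18.5%. At 1.5-fold the count was also 7 with C-30 at 0.5 µM (6 higher and 1 lower), beside 12.2% and 13.4%. Between the doses it was 2 (both lower), beside 7.89% higher and 9.92% lower. The medians of cohesin and condensin kept their direction in each comparison under each setting, with No.10-3 from 0.32 to 0.80 for cohesin and from 0.73 to 1.19 for condensin, with C-30 at 0.5 µM from 0.93 to 1.10 and from 0.94 to 1.05, with C-30 at 2 µM from 0.26 to 0.65 and from 0.20 to 0.66, and between the doses from -0.58 to -0.43 and from 0.020 to 0.061. The lowest values with C-30 at 2 µM are those of the higher floor. Single members, subunit ratios and pathway lists were run through the same settings after seeing the data. Each member kept its direction in each comparison apart from STAG1 with No.10-3, at -0.073 when centred, -0.081 after quantile normalization and -0.042 after lowess. With the higher floor the median of the SMC5/6 list was -0.046 with No.10-3 (3 genes), that of the cohesin regulators -0.080 with C-30 at 2 µM (7 genes) and that of condensin II -0.027 with C-30 at 0.5 µM (2 genes). Centring moved the share of called genes that were higher from 76.7% to 61.1% with No.10-3 and from 43.2% to 56.2% with C-30 at 2 µM. No paired analysis was possible because each condition has 1 array. The values of STAG1 and SMC2 with vehicle lie within background and limit what their differences can show.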
